A study of Mus musculus with 2 samples.

Results

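Class II-high 4T1 tumour cells are cells of a mouse mammary carcinoma line, grown as tumours in mice, in which transcripts of the MHC class II genes H2-Aa and H2-Eb1 made up at least 1% of the molecules counted. They were chosen from single cells by fixed limits on 12 genes: Lgals1 at 5% or more of the molecules, S100a8 under 5%, no molecule of Cd3d, Cd3e, Cd3g, Il33 or Cd34, at most 2 molecules of C1qa and C1qb together, at most 1 of Ccr2, and H2-Aa with H2-Eb1 at 1% or more. Of 12018 cells in all, 298 (2.48%) met the rule. Another 368 cells met every limit but the last and are called class II-low tumour cells here, so that 666 cells were taken as tumour cells. The levels of H2-Aa and H2-Eb1 in the chosen cells are therefore set by the choice, and they are given as a description only.

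The cells came from female BALB/c mice, 8 weeks old, with 4T1 tumours in the left mammary fat pad that were treated from about 70 mm3, at 7 days. The 4 arms received isotype control antibody, anti-Siglec-E, anti-PD-1 or anti-Siglec-E with anti-PD-1, with 6 mice an arm and 2 tumours an arm taken for single cells, and dead cells were removed. EPCAM-positive and EPCAM-negative cells were separated and recombined 1 to 4, so the share of tumour cells among all cells was altered by the experimenters. Transcripts of a fixed mouse immune response panel were counted on 2 cartridges: the first held the isotype and anti-Siglec-E arms (tags 1 and 2, the pool without anti-PD-1), and the second the anti-PD-1 and combination arms (tags 3 and 4, the anti-PD-1 pool). Which arm each tag carried is not used here, since the labels do not give it, and the tags are not replicates. With 1 cartridge a pool, treatment and cartridge cannot be told apart and no test between the pools was possible, so values are given for each tag with 95% intervals that cover counting error only. Levels are molecules per 1000000 molecules of the 396 genes counted in every tag (CPM), and they are compared within a gene, never between genes.

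MHC class II molecules are pairs of an alpha and a beta chain that display peptides from the endosome to CD4 T cells. The invariant chain, encoded by Cd74, fills the groove until H2-DM exchanges its remnant for a peptide. Dendritic cells, macrophages and B cells make class II constitutively, and many epithelial and tumour cells do so after interferon gamma, through the coactivator CIITA, which acts on the conserved X and Y boxes of class II promoters. Ciita itself was not on the panel.

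The genes that define the cells are read from such promoters, and those of both rule genes and of H2-DMb2 are shown so that their boxes can be compared. Each runs from 250 bases before the transcript start to 50 after it, on the gene's own strand (RefSeq, GRCm38.p6), with H2-Aa at chr17:34287774-34288073 on the minus strand, H2-Eb1 at chr17:34305617-34305916 and H2-DMb2 at chr17:34144999-34145298, both on the plus strand. Capitals mark the motif CTGATTGG (the Y box), its core ATTGG on either strand, and in H2-Eb1 a match to an X box-like motif.
H2-Aa: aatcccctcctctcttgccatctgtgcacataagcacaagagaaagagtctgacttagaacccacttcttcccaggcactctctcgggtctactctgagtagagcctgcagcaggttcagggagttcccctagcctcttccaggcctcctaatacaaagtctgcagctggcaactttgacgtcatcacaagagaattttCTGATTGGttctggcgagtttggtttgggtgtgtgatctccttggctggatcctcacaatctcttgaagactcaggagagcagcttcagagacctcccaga
H2-Eb1: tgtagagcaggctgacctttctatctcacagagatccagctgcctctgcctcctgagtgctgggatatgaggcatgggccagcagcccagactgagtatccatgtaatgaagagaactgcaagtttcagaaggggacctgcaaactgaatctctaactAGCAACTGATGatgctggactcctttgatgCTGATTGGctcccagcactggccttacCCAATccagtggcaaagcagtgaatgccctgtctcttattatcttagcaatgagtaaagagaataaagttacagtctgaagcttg
H2-DMb2: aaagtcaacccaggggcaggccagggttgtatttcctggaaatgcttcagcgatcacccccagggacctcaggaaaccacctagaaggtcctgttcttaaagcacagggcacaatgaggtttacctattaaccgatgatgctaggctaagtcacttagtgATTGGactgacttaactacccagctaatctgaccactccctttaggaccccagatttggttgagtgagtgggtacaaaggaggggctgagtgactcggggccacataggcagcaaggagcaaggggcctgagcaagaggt
The full Y box lay 51 bases before the start in H2-Aa and 62 before it in H2-Eb1. In H2-Eb1 the X box-like match lay 92 bases before the start, and a second core, on the other strand, 35 before it. In H2-DMb2 only the core was found, 90 bases before the RefSeq start used. GENCODE M21 begins this gene further upstream, at chr17:34143307, so the printed stretch lies within the gene by that source. Searched on both strands, CTGATTGG stood in 4.10% of 32851 RefSeq promoters of this length, its core (contained in it) in 37.4% and the X box-like motif in 0.298%. A match is a description of the letters only. They are those of the reference strain, whereas BALB/c mice carry another H2 haplotype, which was not read here. Promoters were matched for 5 of the 7 class II genes on the panel. By GENCODE M21 (GRCm38), H2-DMa (chr17:34119541-34139101), H2-DMb2 (chr17:34143307-34151555), H2-Ab1 (chr17:34257689-34269419), H2-Aa (chr17:34282744-34287823) and H2-Eb1 (chr17:34305867-34316674) lie in that order on chromosome 17.

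The epithelial label was checked with 3 genes that the rule did not use and that were counted in tags 2 to 4. Of the 266 class II-high cells in those tags, 255 held at least 1 molecule of Epcam, the epithelial adhesion molecule used for the bead separation, and 242 held 3 or more. Among the 11 cells without Epcam, 8 held Cdh1 (E-cadherin) or Msln (mesothelin). Epcam stood at 14555, 14999 and 12259 CPM in class II-high cells of tags 2 to 4, against 7922, 10717 and 11157 in class II-low cells and 37.6, 881 and 39.7 in macrophages (cells with more than 2 C1qa and C1qb molecules). After each cell was reduced to 1000 molecules, 88.5, 98.1 and 93.9% of class II-high cells held Epcam, compared with 5.87, 2.13 and 3.57% of S100a8-rich neutrophils reduced to the same depth. Cdh1 was at 3945, 3833 and 3218 CPM in class II-high and 2741, 3181 and 2931 in class II-low cells, and Msln at 3492, 3529 and 3659 against 2957, 3260.4 and 3210.2. All 3 epithelial genes were somewhat higher in the class II-high cells of every tag that counted them, and none was 1.5-fold higher in all 3. The median Epcam ratio of 1.40 came down to 1.19 at equal depth and to 1.06 without the 5% of cells with the most molecules. It went the other way, to 2.54, without cells holding a molecule of a leukocyte gene, where only 5, 17 and 7 class II-low cells were left in tags 2 to 4, and the median Cdh1 ratio was 3.28 there. Of the 165 class II-low cells in tags 2 to 4, 144 held at least 1 molecule of Epcam. In tag 2, the 39 tumour cells with H2-Aa and H2-Eb1 under 0.1% held 4526.5 CPM of Epcam. Tumour cells of tag 2 above 0.1% held 13446 CPM or more in every group. In tag 1 the epithelial genes were not counted, so its 32 class II-high and 203 class II-low cells rest on the rule alone.

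The second marker, Irf7, an interferon regulatory factor, differed little between the classes in summed molecules. It was at 723, 694, 1222 and 1359 CPM in class II-high cells of tags 1 to 4 and at 595, 607, 1412 and 1221 in class II-low cells, a ratio of 1.22, 1.14, 0.866 and 1.11. The levels of both classes were higher in tags 3 and 4. The median ratio of 1.13 depended on the cells counted: it was 1.54 with equal weight per cell and 2.47 without cells holding a leukocyte gene. Macrophages held 1708 to 2243 CPM and neutrophils 1425 to 1932.

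Class II-high cells numbered 32 of 235 tumour cells in tag 1, 30 of 84 in tag 2, 132 of 208 in tag 3 and 104 of 139 in tag 4. They made up 13.6% (exact interval 9.50 to 18.7) and 35.7% (25.6 to 46.9) of tumour cells in the pool without anti-PD-1, and 63.5% (56.5 to 70.0) and 74.8% (66.8 to 81.8) in the anti-PD-1 pool. Both tags of the anti-PD-1 pool were thus above both tags of the other, and the intervals of the 2 pools did not overlap. The tags of the first pool also lay apart by more than counting error. The mean shares were 24.7% and 69.1%, a difference of 44.5 points. Leaving out tag 1 lowered it to 33.4 points and leaving out tag 2 raised it to 55.5. As a share of all cells, which the recombination altered, they were 1.32, 1.98, 1.99 and 7.16%. Tumour cells of both classes together were 9.67, 5.54, 3.14 and 9.57% of all cells. The pools also differed below the limit. Of the class II-low cells, 46.8 and 48.1% in tags 1 and 2 had no molecule of either gene, against 21.1 and 2.86% in tags 3 and 4. The limit reads H2-Eb1 with H2-Aa, and H2-Eb1 per molecule of H2-Aa was also higher in macrophages and neutrophils of the anti-PD-1 pool. In tags 1 to 4 the 7 class II genes summed to 69797, 63778, 109057 and 94782 CPM in macrophages. In neutrophils they summed to 1124, 1892, 1317 and 1840. The part of this shift in the share was not tested.

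**Figure D1:**
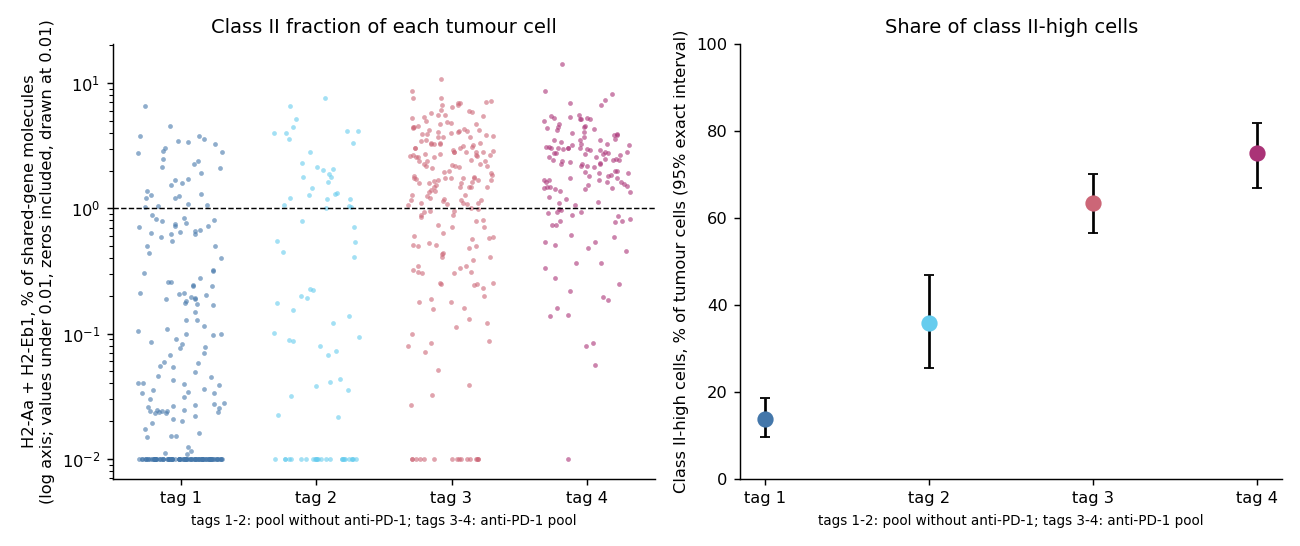
Left, the percentage of each tumour cell's shared-gene molecules that were H2-Aa or H2-Eb1, on a log axis by tag, 1 point per cell, with the 1% limit dashed. Right, the percentage of tumour cells that were class II-high, with exact 95% intervals, from 13.6% in tag 1 to 74.8% in tag 4.

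The class is a range of a continuous value, cut at a fixed limit. Whether it forms a separate cluster was not tested. Its cells' class II percentage had medians of 2.11, 1.95, 2.70 and 2.76% and highest values of 6.52, 7.62, 10.8 and 14.3% in tags 1 to 4. Just inside the limit, between 1 and 1.2%, lay 26 cells (8.72% of the class), and just outside, between 0.8 and 1%, lay 20. In tag 2 these numbers were 6 and 0. The median cell held 2763.5, 3118, 2472.5 and 2760.5 molecules and 110.5, 106.5, 100 and 102.5 genes, against 3646, 2899.5, 2410.5 and 3330 molecules and 108, 104.5, 93.5 and 99 genes in class II-low cells. No cell barcode was shared between tags of one cartridge, and none of the 37 shared across files belonged to a class II-high cell.

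Genes of T cells outside the tumour cells were also higher in both tags of the anti-PD-1 pool. Ifng, the interferon gamma gene, was at 70.7, 57.2, 98.3 and 252 CPM over all other cells of tags 1 to 4, and Cd8a at 128, 148, 281 and 730.3. Cells with a Cd3 molecule made up 17.0, 20.1, 23.6 and 27.6% of all cells. Ifng was lowest in tag 2, with an interval (48.5 to 67.0 CPM) that overlapped that of tag 1 (63.1 to 79.0). The class II-high share, Cd8a and the share of cells with a Cd3 molecule were lowest in tag 1. Ifna1, an interferon alpha gene, gave only 3, 5, 3 and 1 molecules. The part of these cells in the result was not tested.

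Other class II genes were high in the same cells. Of the 275 genes outside the rule with at least 30 molecules in the 2 classes together, 12 (4.36%) were at least 1.5-fold higher in class II-high than class II-low cells in every tag that counted them, and 0 (0%) were at least 1.5-fold lower. This count describes how the classes differ, since the rule itself used this contrast. All 4 class II genes outside the rule that had enough molecules were among the 12. Their median log2 ratio was 2.63, against 0.07 over all genes tested. Of these 4, H2-Ab1 and H2-DMb2 reached 30 molecules mainly through the class II-high cells, and neither reached 100. Their place in this count therefore leans on the filter.

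The rule genes come first as a description. H2-Aa, the alpha chain of I-A, stood at 18043, 18529, 19919 and 19127 CPM against 901, 1074, 2559 and 3210.2 in class II-low cells. H2-Eb1, the beta chain of I-E, stood at 5975, 7070.2, 11994 and 12423 against 185, 341, 1257 and 1762. For both genes, class II-high cells of every tag lay above class II-low cells of every tag. Macrophages of the same tags held 43279, 39454.5, 60420.1 and 52967 CPM of H2-Aa, so a class II-high tumour cell carried a lower share of it than a macrophage did.

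H2-DMa, the alpha chain of the peptide exchange factor H2-DM, stood at 2606, 3366, 2940.1 and 3113 CPM in class II-high cells of tags 1 to 4, and at 268, 321, 662 and 654 in class II-low cells. Its ratio was 9.74, 10.5, 4.44 and 4.76, with counting intervals in tag 1 of 2300.4 to 2941 and 233 to 306 CPM. At 1000 molecules a cell, 90, 84.6, 86.1 and 84.7% of class II-high cells held it, against 16.1, 16.7, 40.3 and 32.4% of class II-low cells and 2.34, 3.70, 2.13 and 2.75% of neutrophils. H2-DMa was thus found in most class II-high cells, and its level there was 65.6, 83.9, 57.5 and 60.4% of that in macrophages.

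Cd74, the invariant chain, was at 753, 646, 789 and 920.2 CPM against 98.3, 126, 146 and 279, a ratio of 7.66, 5.15, 5.42 and 3.30. It was found in 40, 42.3, 52.8 and 54.1% of class II-high cells at 1000 molecules a cell, against 6.25, 10.4, 12.9 and 17.6% of class II-low cells. Set against macrophages, its level was only 9.94, 11.1, 7.98 and 11.0%, well under the share that H2-DMa reached.

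H2-Ab1, the beta chain of I-A, was counted at low levels, 89.2, 116, 64.9 and 61.8 CPM against 3.73, 0, 4.41 and 17.4, from 66 molecules in the class. Its ratio in tag 2, at least 7.69, is a lower bound because no molecule was seen in the class II-low cells, and a floor of 3 molecules took their place. H2-DMb2, a beta chain of H2-DM, had 93 molecules, 65 of them in tag 3, where it stood at 169 against 8.82 CPM. In tag 1 it rested on 1 molecule. The near-identical copy H2-DMb1 could share its reads. H2-Ob, the beta chain of the DM inhibitor H2-DO, gave no molecule in either class, which in class II-high cells allows a level of up to 29.7, 28.9, 7.78 and 9.26 CPM.

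**Figure D2:**
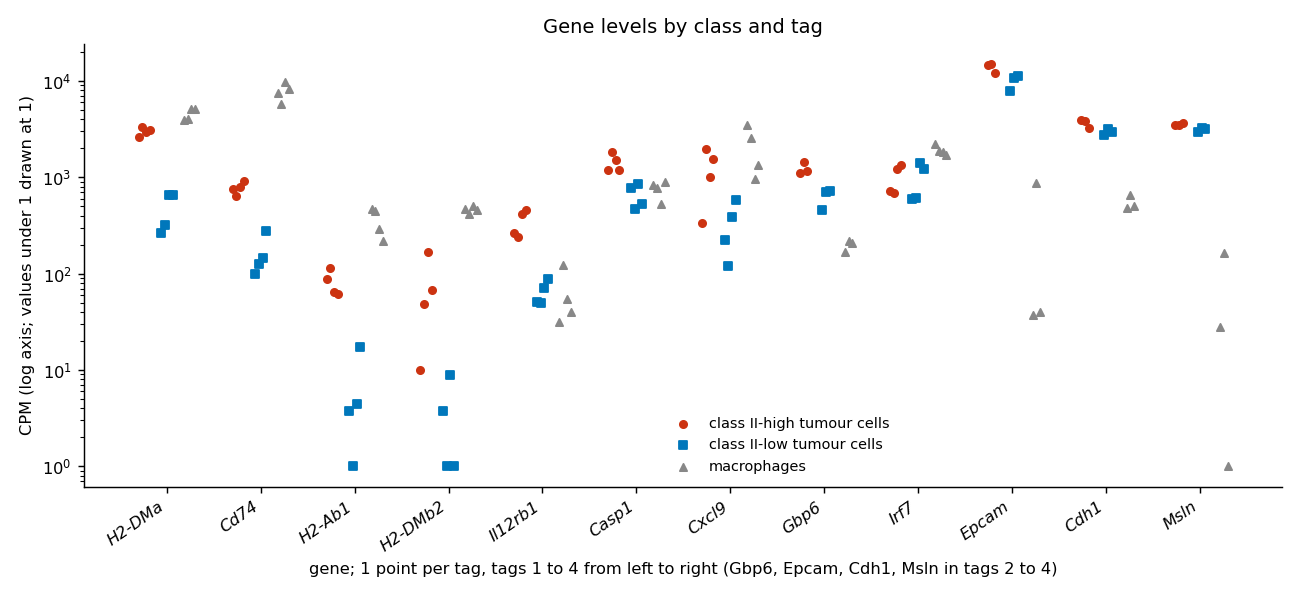
Level of each gene in CPM on a log axis, in class II-high tumour cells (circles), class II-low tumour cells (squares) and macrophages (triangles), 1 point per tag. H2-DMa, Cd74 and Il12rb1 of class II-high cells lie above those of class II-low cells in every tag, Irf7 does not, and Epcam separates both tumour classes from macrophages.

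Among interferon-response genes, 14 had enough molecules and 2 of them, Cxcl9 included, were at least 1.5-fold higher in every tag, with a list median log2 ratio of 0.27. Cxcl9, a chemokine for CXCR3-positive T cells, was at 337, 1977, 1012 and 1559 CPM against 223, 120.5, 384 and 576, most of all in tag 2, and 1 cell held 10.8% of its molecules in the class. Cxcl9 was found in only 16.7, 30.8, 21.3 and 26.5% of class II-high cells at 1000 molecules a cell.

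The class I gene H2-K1, whose copies in the H2 region are alike enough to share reads, stood at 147089, 142379, 172331 and 180652 CPM in class II-high and 89100.1, 101647, 122776 and 145760 in class II-low cells. Its ratio of 1.65, 1.40, 1.40 and 1.24 passed 1.5 in tag 1 alone. Cxcl10 and Cd274, also on the list, showed no common direction. Cxcl10, from the same chemokine family as Cxcl9, had a ratio of 1.5, 1.80, 0.437 and 0.939, and Cd274, which encodes PD-L1, one of 1.59, 0.640, 1.86 and 1.2. Irf8 was 1.23, 1.53, 1.24 and 1.51 times the class II-low level, on the higher side in every tag. Genes known for type I interferon had no common direction either. Oas2, an antiviral synthetase gene, had a ratio of 1.71, 0.961, 2.06 and 0.937. The Ifit2 median ratio of 0.719 turned to 1.91 with equal weight per cell. Ifit3 was at 19.3, 176 and 114 CPM in tags 2 to 4 against 15.1, 521 and 331 in class II-low cells, and Rsad2 (viperin) gave 0, 1 and 4 molecules against 3, 19 and 3. The Ifit3 median ratio of 0.345 became 1.16 without the 5% of cells with the most molecules. The receptor genes Ifngr1 and Ifnar1 had median ratios of 0.966 and 1.19.

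Outside these lists, Il12rb1, a receptor chain for IL-12 and IL-23 known mainly from T and NK cells, stood at 268, 241, 415 and 463 CPM against 51.0, 50.2, 70.6 and 87.2. Its ratio of 5.24, 4.80, 5.88 and 5.31 was nearly constant over tags, and no counting interval of a class II-high tag (the lowest 156 to 356 in tag 2) met the class II-low interval of its own tag. Macrophages held 31.4, 122, 54.5 and 39.7 CPM and neutrophils at most 2.14, so the class II-high cells had more of it than either. T, NK, B and dendritic cells were not compared. Il12rb1 was found in 26.7, 15.4, 24.1 and 28.6% of class II-high and 4.17, 6.25, 6.45 and 11.8% of class II-low cells at 1000 molecules a cell. Markers of T and NK cells stood at a median of 0 CPM a cell in 3 of the 4 tags.

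Gbp6, an interferon-induced GTPase counted in tags 2 to 4, was at 1119, 1435 and 1173 CPM against 462, 697.1 and 724, above the 169, 219.8 and 209 of macrophages. Casp1, the inflammasome protease, was at 1199, 1813, 1505 and 1201 against 784, 472, 856 and 532, and it is named after its values were seen. Cfb, complement factor B, was at 125, 138 and 161 against 40.2, 26.5 and 69.8 in tags 2 to 4, where macrophages held 3167, 3884 and 3615. Aif1 and Fpr1, genes of myeloid cells, were also among the 12. Their 36 and 26 molecules came in large part from single cells, 1 of which held 52.8% of Aif1. H2-DMa and Il12rb1 kept their place among the 12 under every alternative tried. Of the others, Cxcl9, Aif1, Fpr1 and H2-DMb2 lost it under 5 or more.

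Several of these genes were graded across the class II percentage, with no step at the limit. In tag 3, H2-DMa stood at 238, 551, 871, 1457, 2655 and 5016 CPM in tumour cells with under 0.1, 0.1 to 0.3, 0.3 to 1, 1 to 2, 2 to 4 and over 4% class II. Il12rb1 in the same cells stood at 18.3, 50.1, 98.4, 164, 336 and 815 CPM. In tag 4 the H2-DMa values were 162, 658, 737, 1352, 2670.4 and 6385 and those of Il12rb1 81.1, 132, 69.5, 122, 447 and 953. From 0.1% upward H2-DMa increased at each step in both tags. Gbp6 went from 513 CPM in the lowest to 2105 in the highest cells of tag 3, with uneven steps between, and Irf7 and Lyz2 showed no such order in that tag. In tag 4 Lyz2 stood at 0, 65.8, 27.8, 183, 210.5 and 299.5 CPM, higher above the limit than below it. Tags 1 and 2 had few cells above 2% (17 and 15), and their values are less certain.

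**Figure D3:**
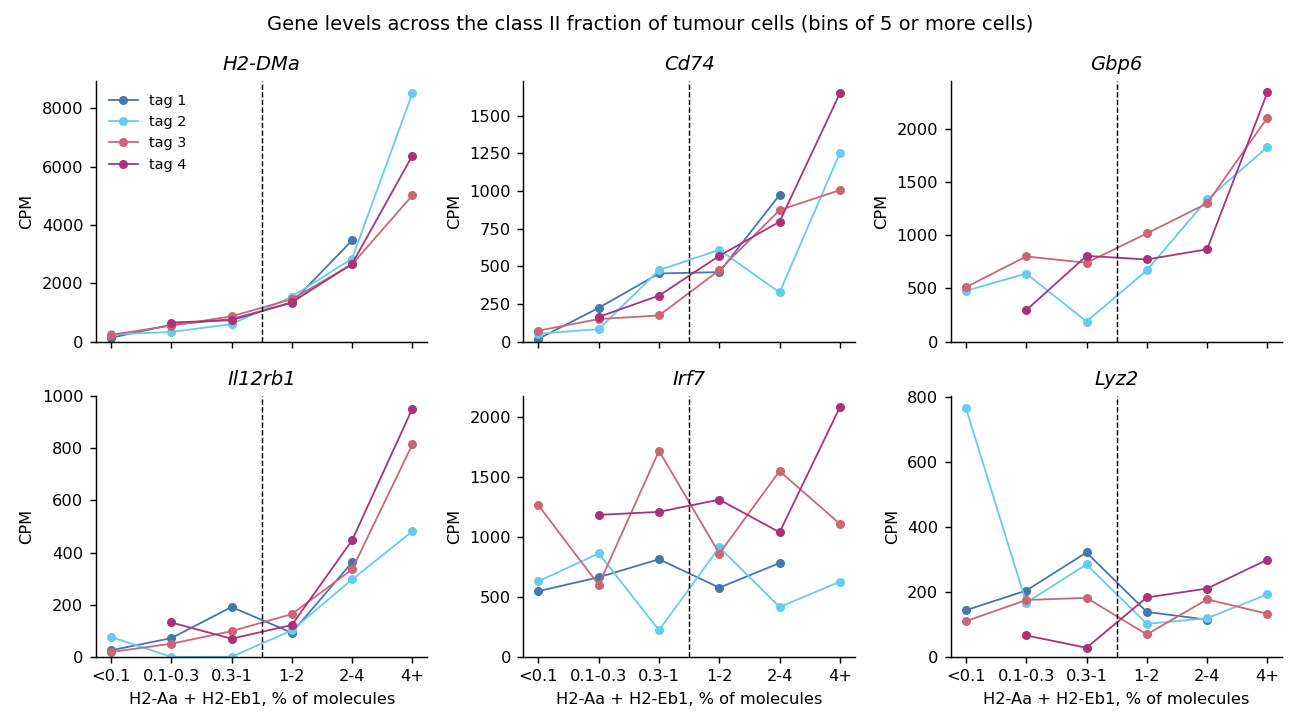
Level in CPM of 6 genes in tumour cells grouped by the percentage of H2-Aa and H2-Eb1 among their molecules, 1 line per tag (Gbp6 in tags 2 to 4), for groups of at least 5 cells, with the 1% limit dashed. H2-DMa and Il12rb1 are highest at the right end of every line, from 238 to 5016 CPM for H2-DMa in tag 3, and Irf7 and Lyz2 are so in tag 4 alone.

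Genes of leukocytes were read in the same cells, because macrophages, dendritic cells and B cells all carry class II. The macrophage and monocyte genes outside the rule, 16 in tags 2 to 4 and 13 of them in tag 1, summed to 1873, 4688, 1988 and 2097 CPM in class II-high cells of tags 1 to 4, to 3560.5, 2525, 1610.4 and 1876 in class II-low cells and to 118123, 118702, 128512 and 107929 in macrophages. The median class II-high cell held 877, 894, 794 and 650.3 CPM. In tag 2 the sum was raised by 1 cell with 64.5% of all Arg1 molecules. Between 2 and 5 of these genes were at 0 in a tag. The macrophage gene Trem2 was found in 7 of 298 cells, Adgre1 in 3 and Mrc1 in 5 of 266.

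Lyz2, lysozyme, was at 119, 125, 132 and 222 CPM in class II-high cells, 173, 582, 163 and 34.9 in class II-low cells and 47792, 33364, 53629 and 38975 in macrophages. Ptprc, which encodes the leukocyte antigen CD45, was at 238, 279.7, 189 and 124 CPM against 168, 100.4, 251 and 122 in class II-low cells and 2742, 3515, 2668 and 2790.3 in macrophages. The 5 genes of leukocytes in general summed to 694, 714, 784 and 670.1 CPM, with 652, 492, 688 and 305 in class II-low cells.

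B cell genes were at a median of 0 CPM a cell in every tag, between 8 and 12 of 14 were at 0 in a tag, and Ms4a1 gave no molecule, with the same upper limits as H2-Ob. Dendritic cell genes summed to 941, 1293, 2655 and 2507 CPM, most of it Fscn1, whose class ratio was 0.918, 0.724, 0.935 and 1.05. The median log2 ratio of the 5 dendritic cell genes with enough molecules was 1.23, above the 0.07 of all genes. Itgax (CD11c) was at 49.5, 116, 36.3 and 21.6 CPM against 22.4, 30.1, 52.9 and 8.72, higher in 3 of the 4 tags. Siglech, a gene of plasmacytoid dendritic cells, gave 25, 31 and 0 molecules in tags 2 to 4 against 0, 58 and 0, with 44.6% of its molecules in 1 cell, and 1 cell held 70.8% of Ccr7. The part of dendritic cell RNA in the class was not tested. Flt3 was found in 4 cells, Ccr7 in 5 and Itgax in 16. The 21 T and NK cell genes outside the rule summed to 168, 289, 187 and 169.8 CPM and neutrophil genes outside it to 2120.4, 1283, 1222 and 1485. The median log2 ratios were 0.15 for macrophage, 0.36 for B cell, 0.23 for T and NK cell, 0.15 for neutrophil and 0.34 for general leukocyte genes. None of the genes on these lists was 1.5-fold higher or lower in class II-high cells of every tag, but the myeloid genes Aif1 and Fpr1, on none of them, were higher. Single members were higher in some tags. Itgam (CD11b) was at 139, 183, 88.2 and 58.7 CPM against 177, 95.4, 30.9 and 8.72, higher in tags 2 to 4. Ighm, an immunoglobulin gene, gave 1, 45, 49 and 2 molecules against 3, 1, 83 and 0, with 46.4% of its molecules in 1 cell, and Il7r gave 7, 4, 3 and 0 against 17, 2, 7 and 0. A few cells with many molecules of a leukocyte gene remained in the class, such as the 4 that held all 56 molecules of Siglech. Removing every tumour cell with a molecule of any of 9 leukocyte genes left 82 class II-high cells and a difference between the pools of 36.6 points. Il12rb1 and H2-DMa stayed at least 1.5-fold higher in each tag, and Cd74 did so where both classes still gave a ratio. Of the 12 genes, 5 were still called in these cells, and Aif1, Cfb, Fpr1, H2-Ab1 and H2-DMb2 had too few molecules.

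**Figure D4:**
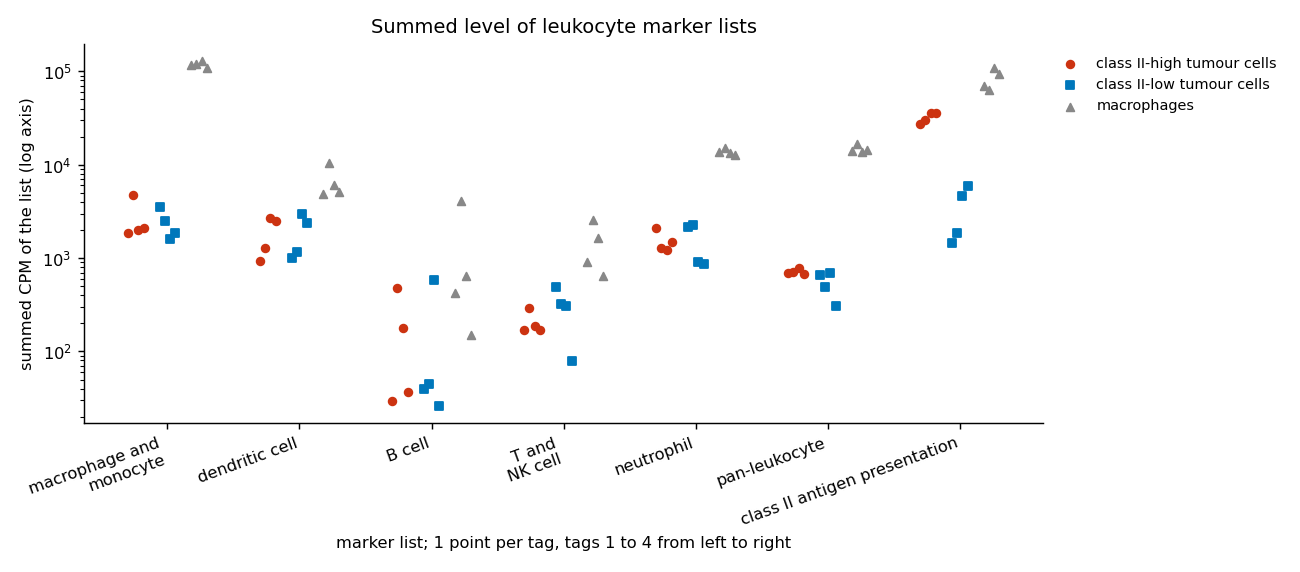
Summed CPM of each marker list on a log axis in class II-high tumour cells (circles), class II-low tumour cells (squares) and macrophages (triangles), 1 point per tag, without the genes of the rule except in the class II list. Macrophage genes of class II-high cells lie between 1873 and 4688 CPM, against 1610.4 to 3560.5 in class II-low cells and at least 107929 in macrophages. The class II list holds H2-Aa and H2-Eb1, so its difference between the tumour classes is set largely by the choice.

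Other programmes gave no gene past the limit. Of 10 proliferation, 13 stress, 11 NF-kappaB, 9 matrix, 16 chemokine and 9 checkpoint-ligand genes with enough molecules, 0 were 1.5-fold higher or lower in every tag, and the list medians lay between -0.04 and 0.21 on the log2 scale. Top2a, a gene of dividing cells, had a ratio of 1.37, 0.719, 2.34 and 1.11, and Myc one of 1.03, 0.672, 1.09 and 1.18. Spp1 (osteopontin) had 1.27, 1.44, 0.630 and 0.622 and Fn1 (fibronectin) 1.07, 0.915, 0.607 and 0.678. Both ratios were lowest in the tags of the anti-PD-1 pool, a difference that was not tested. Fth1, the ferritin heavy chain, was lower in class II-high cells of every tag, at 0.787, 0.883, 0.639 and 0.847 times the class II-low level. Lgals3 and Lgals9, which encode galectins 3 and 9, had median ratios of 0.901 and 1.02, and Nt5e, the ectoenzyme CD73, 0.814.

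A pair of secreted factors came near the limit. Csf2, which encodes GM-CSF, was at 2130.3, 2218, 1702 and 1547 CPM in class II-high cells against 883, 1094, 746 and 1090.4 in class II-low cells. Cxcl16, the ligand of CXCR6, was at 793, 1071, 900.5 and 615 against 432, 487, 384 and 541. Each was over 1.5-fold higher in tags 1 to 3 and less so in tag 4, where the ratios were 1.42 and 1.14.

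Within class II-high cells, the 2 pools were compared gene by gene, calling a gene where both tags of one pool lay at least 1.5-fold above both tags of the other. Of 202 genes counted in all tags with at least 30 molecules in these cells, 7 (3.47%) were higher with anti-PD-1 and 5 (2.48%) were lower, and the median log2 ratio was -0.02. Genes of the rule were kept here, unlike in the count between the classes, and H2-Eb1 is among the 7. With 2 tags on each of 2 cartridges the comparison is a description.

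Fscn1, the actin-bundling protein fascin, had the largest fold of the 7. It was at 803, 752, 2393 and 2409 CPM in class II-high cells of tags 1 to 4, with intervals of 637 to 998 in tag 1 and 2241 to 2552 in tag 3. Class II-low cells showed the same step, 874, 1039, 2559 and 2303, again with both tags of the anti-PD-1 pool on top. Irf7 was 1.82-fold higher in the anti-PD-1 pool, from the values above, and again in both classes. Il12rb1 was 1.73-fold higher. Slc7a7, an amino acid transporter, and Irak1, a kinase of Toll-like receptor signalling, were also among the 7, each with 2 to 4 molecules a tag in the pool without anti-PD-1. Of these 7, Fscn1 alone kept its place under every alternative tried. Irf7 lost it with equal weight per cell, at 1.39-fold, and Il12rb1 with the class II limit at 2%, at 1.48-fold.

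H2-Eb1, a gene of the rule, was higher in the anti-PD-1 pool. The rule limits the sum of H2-Aa and H2-Eb1, so the levels of both in class II-high cells depend on the choice. In class II-low cells, H2-Aa was also higher in both tags of the anti-PD-1 pool. The H2-Aa levels of class II-high cells differed little between tags, while H2-Eb1 went from 5975 and 7070 to 11994 and 12423 CPM. Per 100 molecules of H2-Aa, class II-high cells held 33.1, 38.2, 60.2 and 65.0 of H2-Eb1 in tags 1 to 4. The same step between the pools was present in class II-low cells (20.6, 31.8, 49.1 and 54.9), in macrophages (32.4, 34.6, 54.3 and 52.1) and in neutrophils (24.5, 21.9, 50.8 and 47.6). It was thus shared by tumour and immune cells of a cartridge, and treatment and cartridge cannot be told apart.

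Of the 5 genes lower in the anti-PD-1 pool, Gata3, a transcription factor of luminal mammary cells, was at 941, 704, 399.6 and 405 CPM in class II-high and 900.1, 798, 331 and 427 in class II-low cells, again the same step in both classes. C3, the central complement component, was at 6569, 3125, 1837 and 1896 in class II-high cells, but at 1231, 1165, 3022 and 1762 in class II-low cells, where the order of the pools was the reverse. A single cell held 15.9% of the C3 molecules of the class. Slc11a1, a metal transporter of phagocytes, was at 258, 231, 41.5 and 92.6, Itgam (CD11b) at 139, 183, 88.2 and 58.7 and Arg1 (arginase 1) at 188.3, 1678, 104 and 27.8. These 3 are myeloid genes that macrophages held at 1385 to 3111, 2153 to 3637 and 20068.5 to 30922 CPM, and the part of myeloid RNA in the difference was not tested. Without cells holding a leukocyte gene, Fscn1 alone of the 12 kept its place, 6 of the 12 had too few molecules, and C3 turned to 1.39-fold higher in the anti-PD-1 pool.

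**Figure D5:**
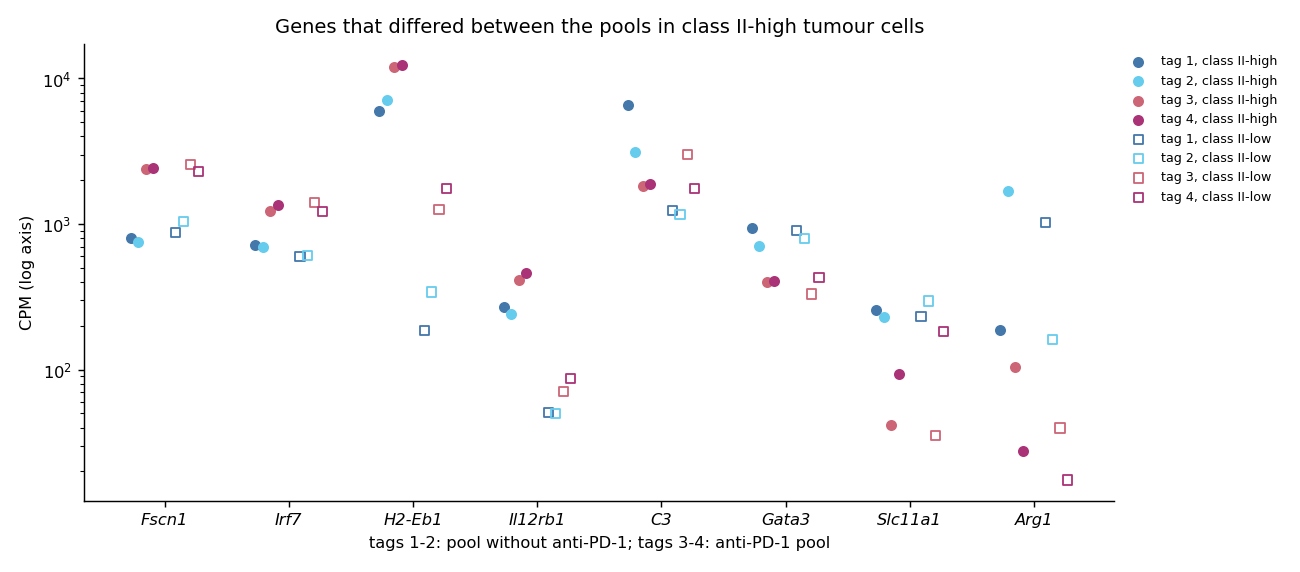
Level in CPM on a log axis of 8 genes that differed between the pools in class II-high cells (filled circles), with class II-low cells (open squares), 1 point per tag. Fscn1, Irf7 and Gata3 show the same step in both classes, while C3 is lower in the anti-PD-1 pool in class II-high cells and higher there in class II-low cells.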

How the data were processed

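Molecules of panel genes were counted in single cells, and the deposited tables give whole-number counts per cell and gene. Per the file headers, version 1.12.1 of the BD Rhapsody Targeted Analysis Pipeline made them, with distribution-based error correction. Cells reached the tables already split by tag. The submitters' processing notes name Seurat 3.2.0, and neither aligner nor build is stated in the sources used here. Since the reference of tag 1 differed from that of the other tags, the rule and the totals use the 396 shared genes, and 72 further genes, Epcam among them, were read in tags 2 to 4.

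The members and gene lists were chosen with earlier results of these data known. Molecules were summed over the cells of a class in each tag and divided by the shared-gene total (Python 3.11.15, pandas 2.3.3, numpy 2.4.6, scipy 1.17.1). A gene with at least 30 molecules was called between the classes where the ratio passed 1.5 in every tag, with a class at 0 set to 3 molecules, and between the pools where the nearest tags of the 2 pools were 1.5-fold apart. Only the calls between the classes were tested on simulated data, drawn with counting error alone. Shares have exact Clopper-Pearson intervals and counts exact Poisson intervals at 95%. Genes were named by rule: measured class II, interferon and epithelial genes, the 10 largest calls in each direction, the 4 genes of each other list with the most molecules, and the genes of the rule. Exceptions are stated or are single markers of a named cell type. No doublets were removed, but 1 alternative left out the 5% of cells with the most molecules in each tag. Others changed the limits, the depth, the weighting of cells or the scaling (TMM, edgeR 4.0.16), or left out cells with leukocyte genes or 1 tag. Leaving out a tag for the share was chosen after seeing the data. Results on some genes are not reported here.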

Additional observations from a re-analysis of the deposited data

Results flagged for a closer look

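The ratio of Cxcl2, a neutrophil-attracting chemokine, between class II-high and class II-low tumour cells pointed in opposite directions in the 2 pools. It was 0.477 and 0.451 in tags 1 and 2, and 2.09 and 1.84 in tags 3 and 4. Class II-high cells held 1853, 916, 1962 and 1732 CPM, so the turn came mainly from the class II-low cells, which held 3880, 2033, 940 and 942. One cell carried 13.3% of the Cxcl2 molecules of the class II-high cells. Neutrophils held 39455 to 58672 CPM. The difference was not tested, and the part of neutrophil RNA in it was not tested either.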

How the results depend on the processing

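No paired analysis was possible because each pool is a single sample and the result comes from no test. The difference in share of 44.5 points between the pools became 34.3 with the class II limit at 2%, 36.6 without cells holding a leukocyte gene, and 33.4 or 55.5 without tag 1 or tag 2. It stayed between 38.8 and 50.2 under the other 7 alternatives. The 12 genes higher in class II-high cells became 6 with Lgals1 at 8% or more, 6 at a fold of 2, and 8 to 17 otherwise, and all 12 were kept under TMM scaling. These were not always the same genes. Of the 13 without leukocyte-gene cells, 5 were among the 12, and of the 10 with the class II limit at 0.5%, 7 were. The 0 lower genes became 2 with the class II limit at 0.5%, 1 at 2%, 1 with Lgals1 at 8%, 1 with equal weight per cell, 1 without the 5% of cells with the most molecules, 1 without leukocyte-gene cells, 2 in cells with 3 or more Epcam molecules, and 2, 2, 3 and 2 without tags 1 to 4 in turn. Within class II-high cells, the 7 genes higher in the anti-PD-1 pool became 2 at a fold of 2, 4 without leukocyte-gene cells, and 23, 29, 11 and 13 without tags 1 to 4. The 5 lower genes became 3 with at least 100 molecules, 1 at a fold of 2, 14 with equal weight per cell, 8 without the 5% of cells with the most molecules, and 25, 26, 12 and 16 without tags 1 to 4. With a single tag left in a pool, fewer values have to lie apart. The Epcam ratio of 1.40 became 1.19 at 1000 molecules a cell and 1.06 without the 5% of cells with the most molecules. Without leukocyte-gene cells it was 2.54. Otherwise the cause was not tested. Of 215 recomputed values of single genes, 34 moved by more than counting error and 181 did not. Genes with few molecules and the 30 to 32 class II-high cells of tags 1 and 2 set the limit of precision.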
